A study of Homo sapiens with 6 samples.

Results

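The genes described here are 44 genes of the actin cytoskeleton and its contractile partners, chosen by name from a list of actins, calponins, tropomyosins, myosins and actin regulators. All 44 were matched by symbol among the 60676 gene IDs counted, and all 44 were abundant enough to be among the 15577 tested genes. RNA sequencing was done on HEK293A cells, which grow attached and derive from the human kidney line HEK293, in 2 groups of 3 libraries. The vehicle group received DMSO, and the other received 20 nM VT01454 for 2 h. VT01454 is known here only by its code name. The series title places the work in the Hippo pathway, phosphatidylinositol transfer proteins and phosphoinositides, so the comparison asks how the compound changed transcripts, here those of the actin filament system.

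Actin exists as soluble monomers and as filaments. Nucleators such as the Arp2/3 complex and formins start filaments, profilin feeds monomers to their ends, capping protein closes the ends, cofilin with WDR1 takes old filaments apart, and tropomyosins and crosslinkers set which filaments last and which ones myosin II can pull on. Free monomers hold back the MRTF co-activators of serum response factor (SRF), which binds a promoter element called the CArG box, and genes for actin and many actin-binding proteins are textbook SRF targets. Filament tension is also a known upstream input to YAP and TAZ, the co-activators that the Hippo pathway restrains.

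Total counts were 19126039 to 26879796 in the vehicle libraries and 24646466 to 28880374 in the VT01454 libraries. The vehicle libraries were less alike than the VT01454 libraries. Over 9392 genes with at least 10 counts per 1000000 counts (CPM), the median absolute log2 difference was 0.108 to 0.171 between vehicle libraries and 0.047 to 0.055 between VT01454 libraries. Vehicle library 3 lay nearer to the VT01454 libraries (0.077 to 0.084) than to the other vehicle libraries. The same held by less for vehicle library 1 (0.096 to 0.106 against 0.108 and 0.114). Vehicle library 2 lay farthest from the VT01454 libraries (0.153 to 0.168). Of 6 transcripts listed as typical of HEK293 cells, the neurofilament gene NEFL stood at 676 CPM in vehicle, while PAX2 stood at 0.518 CPM and LHX1 had at most 3 counts in any library. The leukocyte markers PTPRC and CD3E were at 0 in all 6 libraries, and 7 leukocyte markers together held 0.591 to 1.20 CPM in vehicle and 1.16 to 1.65 CPM with VT01454. Markers of fibroblasts and endothelium together held 24.3 to 36.7 and 23.6 to 32.1 CPM. Separate cultures are not named in the labels, and the p-values therefore cover the spread between these libraries alone, which may be technical. In bulk RNA, fewer expressing cells and less RNA per cell cannot be told apart.

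With VT01454, 5 of the 44 genes rose, none fell and 39 did not pass. At an unadjusted p below 0.05 in edgeR 11 of the 44 stood (25.0%), all higher, beside 14.4% of all tested genes in either direction. DESeq2 called 5 of the 44 higher and 0 lower, with 296 and 131 over all tested genes, and limma-voom 5 and 0, with 190 and 87. The 5 were the cytoplasmic actin genes ACTG1 and ACTB, the tropomyosin gene TPM4, the actin-bundling LIM protein gene LIMA1, and WDR1, whose product helps cofilin to disassemble filaments. Their rises were 1.17-fold to 1.44-fold. Of all 15577 tested genes 1.89% changed (edgeR quasi-likelihood test, Benjamini-Hochberg adjusted p below 0.05), 1.27% as rises and 0.616% as falls. The 44 genes stood at 11.4% as rises and 0% as falls. The list was drawn up with earlier results of these data known, so shares of the 44 beside other genes are no independent test. Among the 35 genes with a mean of at least 50 CPM, a limit chosen after the values were seen, 14.3% rose, against 1.73% of 4729 other genes at that level. In libraries with VT01454 the 44 genes together took 1.98% to 2.01% of all counts, and in vehicle libraries 1.76% to 1.81%. Most of that difference lay in the actin genes, which took 0.693% to 0.747% of counts with vehicle and 0.879% to 0.903% with VT01454. The median log2 fold change over the 44 was 0.033, beside −0.0073 over all tested genes. Abundant genes leaned upward in general: at a mean of at least 50 CPM the medians were 0.043 for the 35 and 0.020 for the 4729 others.

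The call count moved with single libraries. It was 3 without vehicle library 1 or any one VT01454 library, 6 without vehicle library 2, and 9 rises with 1 fall without vehicle library 3. In the same order, all tested genes gave 73 rises without vehicle library 1 and 85 to 93 without 1 VT01454 library, 255 without vehicle library 2 and 1170 without vehicle library 3. The rises of ACTG1, TPM4 and LIMA1 passed in all of these and in the 7 other alternatives run.

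**Figure D1:**
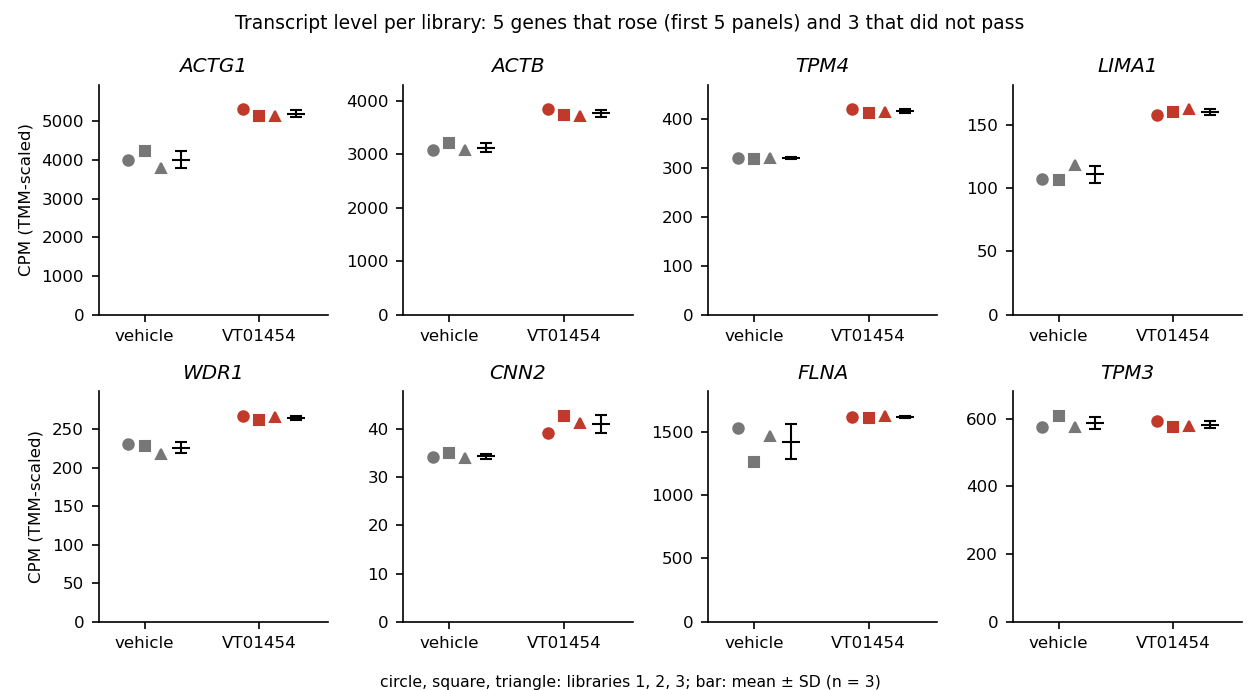
Transcript level in CPM (y axis, from 0) in each library for the 5 genes that rose (ACTG1, ACTB, TPM4, LIMA1, WDR1) and for CNN2, FLNA and TPM3, which did not pass; grey marks are vehicle, red marks VT01454, marker shape gives the library number, and bars are mean ± SD (n = 3). In the 5 genes that rose every VT01454 library lies above every vehicle library, and in TPM3 the groups overlap.

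Actins are the building blocks of the filament. ACTG1, which encodes gamma-actin, was the most abundant of the 44 genes per kilobase of exon, at 1337 ± 74.8 CPM per kilobase (RPKM; SD, n = 3) in vehicle. It lies on chromosome 17 from 81509971 to 81523847 (hg38, minus strand). ACTG1 stood at 3987, 4231 and 3784 CPM in vehicle libraries 1, 2 and 3 and at 5307, 5132 and 5144 CPM in VT01454 libraries 1, 2 and 3. Every VT01454 library lay above every vehicle library, and the rise was 1.30-fold (log2 fold change 0.38 ± 0.05 SE, edgeR adjusted p = 0.00194). ACTB, which encodes beta-actin and is often used as a loading control (chromosome 7, 5527147 to 5563784, minus strand), held 889 ± 22.0 RPKM in vehicle. Its libraries stood at 3078, 3217 and 3089 CPM with vehicle and at 3847, 3737 and 3714 CPM with VT01454. The groups did not overlap, and ACTB rose 1.20-fold (0.27 ± 0.05, edgeR adjusted p = 0.0103). The ACTB call did not hold when vehicle library 1 or a VT01454 library was left out, with edgeR adjusted p from 0.0992 to 0.116 and log2 fold changes of 0.25 to 0.28.

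The smooth muscle actin gene ACTA2 was near the bottom of the range. Its counts were 55, 52 and 31 with vehicle and 46, 43 and 31 with VT01454, or 2.59, 2.71 and 1.14 CPM and 1.61, 1.73 and 1.27 CPM. The groups overlapped and ACTA2 did not pass (−0.46 ± 0.30, edgeR adjusted p = 0.523), but without vehicle library 3, its lowest vehicle library, it was called lower (−0.79, adjusted p = 0.0485). STAMBPL1, which overlaps ACTA2 on the opposite strand, stood at 15.1 CPM, and the strand setting of the counting is not given in the sources used here. Within a library, gamma-actin made up 60.3%, 60.7% and 59.0% of the 3 actins per kilobase with vehicle and 61.9%, 61.7% and 61.9% with VT01454. Lengths are of all exons of a gene merged, so the size of such shares depends on the annotation too.

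Tropomyosins are coiled-coil proteins that lie along the filament and control access of myosin and cofilin. TPM4 (chromosome 19, 16067021 to 16103005, plus strand) encodes a low-molecular-weight tropomyosin of non-muscle cells. It was measured at 321, 318 and 322 CPM with vehicle and at 421, 414 and 416 CPM with VT01454. The spread within each group was far smaller than the step between them, and TPM4 rose 1.30-fold (0.38 ± 0.05, edgeR adjusted p = 0.00124). TPM3, the most abundant tropomyosin per kilobase (69.9 ± 2.18 RPKM in vehicle), stood at 576, 607 and 575 CPM with vehicle and at 593, 576 and 577 CPM with VT01454. These ranges overlapped, and the log2 fold change of TPM3 was −0.010 ± 0.05 (edgeR adjusted p = 0.945). TPM1, the gene behind several muscle and non-muscle tropomyosins, had all 3 VT01454 libraries (52.1 to 60.2 CPM) above the vehicle libraries (47.5 to 49.7 CPM) but did not pass (0.20 ± 0.07, adjusted p = 0.214). TPM2, the beta-tropomyosin gene, was low, at 6.46 to 10.2 CPM with vehicle and 6.25 to 8.44 CPM with VT01454 (−0.17 ± 0.17, adjusted p = 0.676).

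The ratio of related genes was read within each library. With merged exon lengths its size depends on the annotation, but its log2 difference between the groups does not. Per kilobase, TPM4 stood at 0.541, 0.509 and 0.544 of TPM3 with vehicle and at 0.6896, 0.6988 and 0.6996 with VT01454. These do not overlap, and the mean log2 ratio differed by 0.39 (exact two-sided permutation p = 0.1, the smallest that 3 against 3 libraries can give, and 0.2 after Benjamini-Hochberg adjustment over 14 pairs of related genes). ACTG1 over ACTB was 1.52, 1.55 and 1.44 with vehicle and 1.62, 1.61 and 1.63 with VT01454, a log2 difference of 0.11 (exact permutation p = 0.1, adjusted 0.2). In all, 7 of the 14 pairs reached that smallest p, the others being CNN2 over CNN3 (0.27), FLNA over FLNC (0.19), TPM4 over TPM1 (0.18), MYL12A over MYL12B (0.18) and, in the opposite direction, DIAPH1 over DIAPH3 (−0.068), all log2 differences. That p means only that the groups did not overlap. Of single tested genes, 11.3% had groups apart upward and 9.84% downward, and no share over other gene pairs was taken. The pairs were chosen with results of these data known, so their number is no result about ratios in general.

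**Figure D2:**
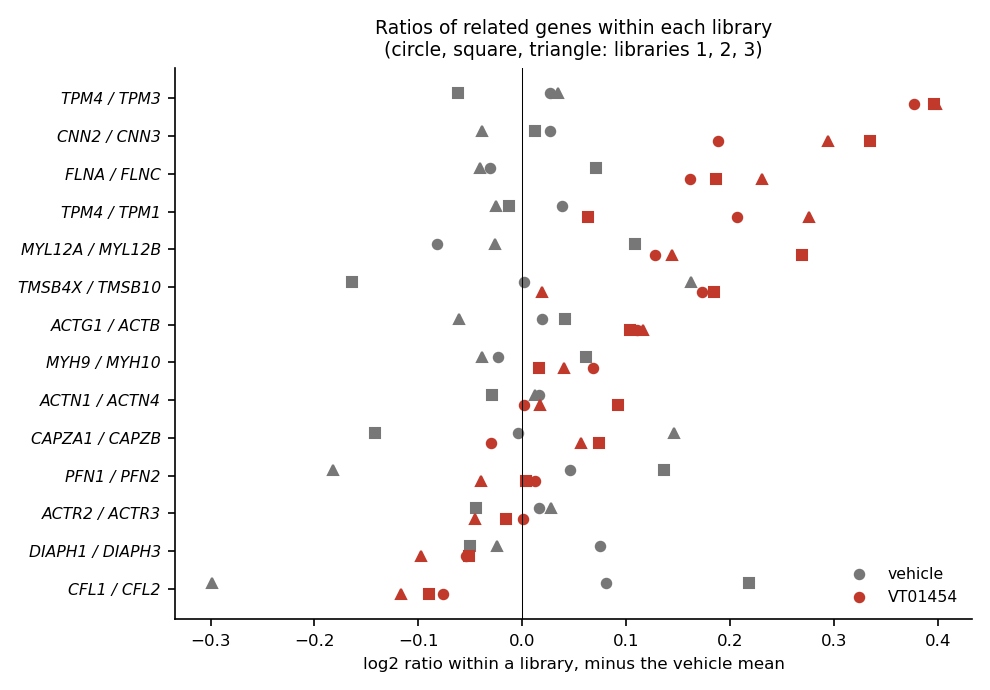
Log2 ratio of 2 related genes within each library, minus the mean of the vehicle libraries (x axis), for 14 pairs (y axis); grey is vehicle, red is VT01454, and marker shape gives the library number. TPM4 over TPM3 has the widest gap between the groups (0.39), while MYH9 over MYH10, PFN1 over PFN2 and ACTR2 over ACTR3 overlap.

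Crosslinkers tie filaments into bundles and networks. LIMA1 (chromosome 12, 50175788 to 50283546, minus strand) encodes EPLIN, which bundles filaments and slows their branching. It stood at 107, 107 and 119 CPM with vehicle and at 158, 160.0 and 162 CPM with VT01454. No libraries overlapped, and LIMA1 rose the most of the 5, 1.44-fold (0.53 ± 0.06, edgeR adjusted p = 3.73e-04). FLNA, the gene of the abundant crosslinker filamin A, was highest in this group per kilobase (134 ± 13.1 RPKM in vehicle). Its libraries stood at 1529.9, 1266 and 1469 CPM with vehicle and at 1617, 1611 and 1625 CPM with VT01454. All VT01454 libraries were above the vehicle libraries, of which library 2 was the lowest, and FLNA did not pass (0.19 ± 0.07, adjusted p = 0.218, and 0.11 without vehicle library 2). ACTN4, an alpha-actinin gene, stood at 499.6, 470.1 and 479.8 CPM with vehicle and at 497, 485 and 483 CPM with VT01454, with overlapping groups (0.016 ± 0.05, adjusted p = 0.912). Its relative ACTN1 (0.052 ± 0.06), the muscle filamin gene FLNC (−0.011 ± 0.08, and −0.12 without vehicle library 2) and the LIM-only gene FHL1 (0.072 ± 0.05) did not pass either.

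FILIP1L, a filamin-interacting protein gene of low level, had the largest log2 fold change of the 44, at 0.61 ± 0.25, without passing (adjusted p = 0.286). Its counts were 34, 20 and 49 with vehicle and 81, 50 and 50 with VT01454, and the groups did not overlap as CPM (1.04 to 1.81 and 2.01 to 2.84). CMSS1, a gene at 110.2 CPM, overlaps FILIP1L on the opposite strand, so its counts are uncertain.

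WDR1 (chromosome 4, 10074339 to 10116949, minus strand) was the only one of 12 turnover, capping and monomer-binding genes that rose. It stood at 231, 229 and 218 CPM with vehicle and at 267, 262 and 265 CPM with VT01454. The groups did not overlap, and the rise was 1.17-fold (0.23 ± 0.05, edgeR adjusted p = 0.0489), just inside the threshold. It was lost without vehicle library 1 (adjusted p = 0.149), without any single VT01454 library (0.241 to 0.278), and with library size alone in place of trimmed-mean factors (0.0780). With those single libraries left out its log2 fold change was 0.22 to 0.25. The cofilin gene CFL1, whose product WDR1 assists, differed by −0.0030 ± 0.08 (adjusted p = 0.989), CFL2 by 0.09 ± 0.07 and the related destrin gene DSTN by 0.043 ± 0.06. CFL2 was called higher without vehicle library 3 (0.16, edgeR adjusted p = 0.0471). The severing and capping protein gene GSN, gelsolin, was low at 13.7 to 18.3 CPM with vehicle and 13.2 to 14.8 CPM with VT01454 (−0.19 ± 0.11, adjusted p = 0.460), and RAB14, at 263 CPM, overlaps it on the opposite strand.

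Monomer-binding genes were among the most abundant per kilobase. TMSB10, a beta-thymosin gene whose small product sequesters monomers, held 465 ± 66.6 RPKM in vehicle, next after ACTG1 and ACTB. It stood at 222, 267 and 202 CPM with vehicle and at 216, 221 and 221 CPM with VT01454. PFN1, the main profilin gene, held 258 ± 37.1 RPKM, which did not differ from the 274 ± 19.4 RPKM of TAGLN2 beyond their spread. PFN1 stood at 502, 591 and 444 CPM with vehicle and at 489.8, 479 and 473 CPM with VT01454. In both genes the vehicle libraries enclosed the VT01454 libraries, and neither passed (−0.070 ± 0.08 for TMSB10 and −0.092 ± 0.08 for PFN1, edgeR adjusted p = 0.740 and 0.651). The sign of both turned without vehicle library 2, their highest library (0.049 and 0.024), and the values were −0.16 and −0.19 without vehicle library 3, their lowest. PFN2 was the only gene of the 44 with every VT01454 library below every vehicle library (176.9 to 180.0 against 180.1 to 199 CPM), and it did not pass (−0.076 ± 0.06, adjusted p = 0.572). The others were TMSB4X, the second beta-thymosin gene (0.066 ± 0.06), the capping protein genes CAPZA1 (0.020 ± 0.06) and CAPZB (−0.013 ± 0.06), and COTL1, a cofilin-family gene (−0.0032 ± 0.07).

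Nucleation and elongation genes did not pass in any of 6 cases, with log2 fold changes from −0.10 to 0.11. ACTR2, a subunit of the Arp2/3 branch nucleator and the most abundant of them per kilobase, stood at 512, 516 and 574 CPM with vehicle and at 577, 566 and 567 CPM with VT01454. Vehicle library 3 lay among the VT01454 libraries (0.094 ± 0.06, adjusted p = 0.485), and without it ACTR2 was called higher (0.15, adjusted p = 0.0479). DIAPH1, a formin that elongates filaments, stood at 388.0, 344.2 and 392.1 CPM with vehicle and at 384, 384 and 375 CPM with VT01454 (0.023 ± 0.06, adjusted p = 0.885). The Arp2/3 genes ARPC2, ARPC3 and ACTR3 differed by −0.033 ± 0.06, −0.10 ± 0.07 and 0.11 ± 0.06 and the formin gene DIAPH3 by 0.091 ± 0.06.

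Myosin II pulls filaments past each other, and none of the 7 genes of this role passed. MYH9, the heavy chain gene of non-muscle myosin IIA, stood at 845, 734 and 832 CPM with vehicle and at 900.2, 883 and 883 CPM with VT01454. All VT01454 libraries were above, by 1.11-fold (0.15 ± 0.06, adjusted p = 0.294), and by a log2 fold change of 0.085 without vehicle library 2, the lowest. MYH10, the heavy chain gene of myosin IIB, differed by 0.10 ± 0.07 with overlapping groups, and by 0.012 without vehicle library 2. MYL12B, a regulatory light chain gene, stood at 168, 181 and 162 CPM with vehicle and at 161, 161 and 164 CPM with VT01454 (−0.071 ± 0.06, adjusted p = 0.607). Its near-identical neighbour MYL12A (0.11 ± 0.09) shares sequence with it, so the split of reads between the pair is uncertain. MYL6, the essential light chain gene (−0.14 ± 0.10), overlaps SMARCC2, which stood at 168 CPM. CALD1, the gene of caldesmon, which restrains myosin on filaments, differed by 0.15 ± 0.06 with groups apart (adjusted p = 0.291) and was called higher without vehicle library 3 (0.20, adjusted p = 0.0308).

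MYL9, the light chain gene of smooth muscle and stress fibres, split the libraries in another way. Its counts were 66, 78 and 24 with vehicle and 24, 66 and 61 with VT01454. Vehicle library 3 and VT01454 library 1 stood at 0.886 and 0.842 CPM, and the 4 others at 2.49 to 4.07 CPM (−0.41 ± 0.65, adjusted p = 0.815). The neurofilament gene NEFM showed the same 2 libraries low, with 10 and 4 counts against 87 to 126 in the 4 others.

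Calponins and transgelins bind along filaments, and of the 5 genes listed TAGLN and CNN1 mark smooth muscle. None of the 5 passed. TAGLN2, the non-muscle transgelin gene, stood at 673, 734 and 639 CPM with vehicle and at 689, 668 and 678 CPM with VT01454 (−0.0079 ± 0.06, adjusted p = 0.963). CNN3, the acidic calponin gene, stood at 256, 265 and 266 CPM with vehicle and at 262, 259 and 257 CPM with VT01454 (−0.016 ± 0.05, adjusted p = 0.912). Both pairs of groups overlapped. CNN2 did not: it stood at 34.16, 34.96 and 33.99 CPM with vehicle and at 39.2, 42.7 and 41.4 CPM with VT01454. It was the nearest of the 44 to the threshold from outside, 1.20-fold higher (0.26 ± 0.07, edgeR adjusted p = 0.0859), and was called without vehicle library 2 (0.0385), without vehicle library 3 (0.0335) and with no count filter (0.0422). The smooth muscle genes TAGLN and CNN1 were low, with 40 to 67 and 13 to 17 counts per library, and log2 fold changes of 0.049 ± 0.26 and −0.32 ± 0.36. PCSK7, which overlaps TAGLN on the opposite strand, stood at 24.7 CPM.

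**Figure D3:**
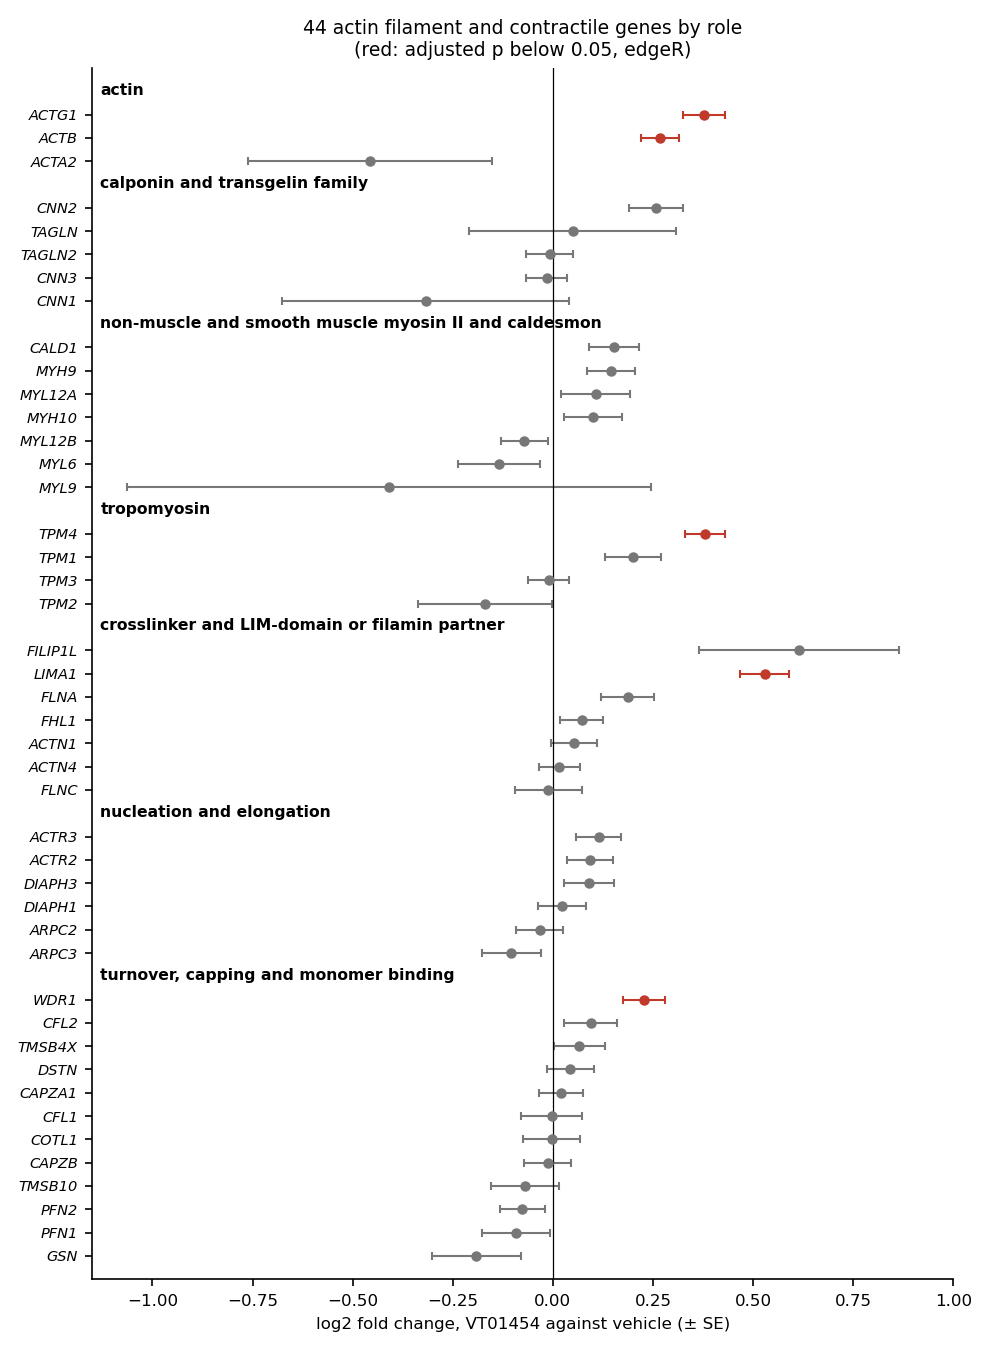
Log2 fold change of VT01454 against vehicle ± SE (x axis) for the 44 genes, grouped by role (y axis); red marks passed an adjusted p of 0.05 in edgeR and grey marks did not. The 5 red genes lie in 4 of the 7 roles, and the widest error bars belong to low genes such as MYL9 (SE 0.65).

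Beside the 5 rises, 8 further genes had every VT01454 library above every vehicle library, 13 of 44 in all or 29.5%. Of all tested genes 11.3% had that order and 9.84% the opposite one, which PFN2 alone of the 44 showed. At a mean of at least 50 CPM, 31.4% of 35 listed genes and 15.6% of 4729 other genes had groups apart upward. Downward the shares at that level were 2.86% and 6.36%. The 33 genes with a mean of at least 10 CPM that did not pass had log2 fold changes of −0.19 to 0.26 with standard errors of 0.051 to 0.11. The 6 genes under 10 CPM had −0.46 to 0.61 with standard errors of 0.17 to 0.65, so that only much larger changes would have been detectable there.

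**Figure D4:**
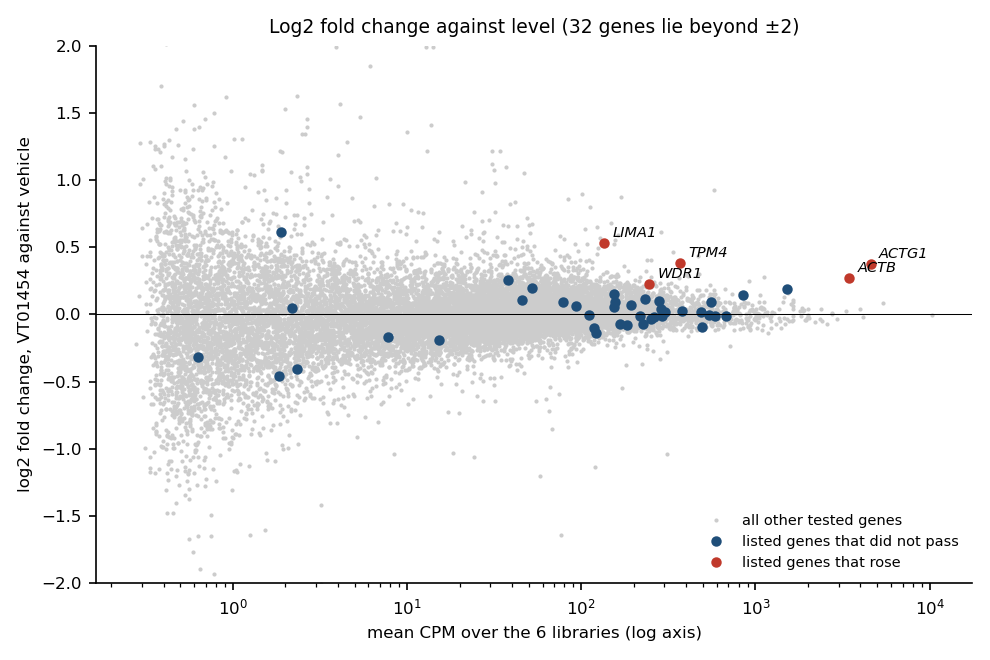
Log2 fold change of VT01454 against vehicle (y axis) against mean CPM over the 6 libraries (x axis, log scale) for all tested genes; grey dots are other genes, blue dots are listed genes that did not pass and red dots the 5 that rose. ACTG1 and ACTB lie at the far right, among the most abundant transcripts, and 32 genes fall outside the plotted range of −2 to 2.

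The promoters of the genes were read because SRF is the textbook regulator of this group and its own transcript rose. SRF stood at 134, 135 and 119 CPM with vehicle and at 194, 193 and 196 CPM with VT01454, a 1.503-fold rise (0.59 ± 0.06, edgeR adjusted p = 1.95e-04) with groups apart. Its co-activator genes MRTFA and MRTFB did not pass (−0.0073 ± 0.07 and 0.053 ± 0.10). RefSeq windows from 250 bases before to 50 bases after the start (GRCh38.p14, 1 start per gene) were given for 40 of the 44, not for ACTB, TAGLN, MYL9 and PFN2. A CArG box, C bases followed by a run of A or T and then G bases, was found in 5 of these 40 windows (12.5%) and in 454 of 35116 windows of all genes (1.29%). The box reads as a CArG box on both strands.

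The 80 bases around each of the 5 boxes are shown 5′ to 3′ on the gene's own strand, with the box in capitals, because all 5 belong to genes whose VT01454 libraries lay above their vehicle libraries. They are chr17:81512849-81512928 (minus) for ACTG1, chr19:16067330-16067409 (plus) for TPM4, chr19:1026484-1026563 (plus) for CNN2, chrX:154374684-154374763 (minus) for FLNA and chr3:99876189-99876268 (minus) for FILIP1L.
ACTG1: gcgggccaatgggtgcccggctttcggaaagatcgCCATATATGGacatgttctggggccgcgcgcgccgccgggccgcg
TPM4: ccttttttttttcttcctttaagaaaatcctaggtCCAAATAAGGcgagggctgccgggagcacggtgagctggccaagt
CNN2: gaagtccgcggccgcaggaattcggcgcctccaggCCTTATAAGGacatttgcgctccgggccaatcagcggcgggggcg
FLNA: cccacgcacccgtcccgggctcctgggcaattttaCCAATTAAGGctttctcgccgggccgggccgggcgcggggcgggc
FILIP1L: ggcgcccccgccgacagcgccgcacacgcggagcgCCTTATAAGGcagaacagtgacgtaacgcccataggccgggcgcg

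The boxes began 94 bases before the start in ACTG1 and FLNA, 89 in CNN2, 173 in TPM4 and 60 in FILIP1L. CNN2 and FILIP1L carry the same 10 letters. ACTG1 and TPM4 rose, while CNN2, FLNA and FILIP1L did not pass, with the values given above. The median log2 fold change of these 5 was 0.38, and of the 35 other genes with a window 0.016. Groups were apart upward in 5 of 5 and in 7 of 35, or 20.0%. The list was drawn up with results of these data known, so this split of its genes is no independent test. LIMA1 and WDR1 rose without a match in their windows. Among 111 other tested genes with a box, 16.2% had their groups apart upward and 2.70% rose, against 11.9% and 1.40% of 11073 without. Outside the list the median log2 fold change was 0.011 with a box and −0.0036 without. Most genes with a box outside the list did not pass. The core GGAATG holds the letters bound by the TEAD partners of YAP and TAZ. It was searched on both strands and can share its G bases with a CArG box. GGAATG was in 7 of the 40 windows and in 4928 of all 35116, which are similar shares. It was in 0 of the 4 windows of genes that rose, too few windows to tell 0 apart from the share in all windows. The CArG box and GGAATG matches are letters in a window and say nothing of binding.

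Other genes of the pathway were read by list. In the list of SRF and its co-activators 1 of 3 rose, SRF itself, and of 23 crosslinkers and cortex linkers 1 rose, PDLIM7. PDLIM7, an actin-associated PDZ and LIM protein gene, stood at 39.3, 37.5 and 35.2 CPM with vehicle and at 48.9, 49.2 and 47.0 CPM with VT01454. The groups did not overlap, and it rose 1.30-fold (0.37 ± 0.07, edgeR adjusted p = 0.0132). It did not pass with vehicle library 1 or a VT01454 library left out (adjusted p = 0.0581 to 0.116), where its log2 fold change was 0.37 to 0.41.

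None of 22 Arp2/3 subunits and activators, 17 formins and elongation factors and 19 tested genes of capping, severing and cofilin control passed in edgeR, beside 1.89% of all tested genes, and their median log2 fold changes were 0.0068, 0.045 and 0.045. At an unadjusted p below 0.05 these 3 lists had 3, 3 and 2 genes in edgeR, beside 2239 of all tested genes. COBL, an actin nucleator gene of the formin list, was called higher in DESeq2 (0.33, adjusted p = 0.0124), with no count filter and without vehicle library 2 or 3. Without vehicle library 3 the 3 lists had 2, 2 and 1 genes called higher, which were ABI1 and WASF1, COBL and DIAPH2, and ADD3. In that setting 1170 of all 15890 tested genes were called higher, so these calls are not particular to the lists. Of 10 muscle actin and smooth muscle genes only 4 were tested. The skeletal actin gene ACTA1 had 8, 6 and 8 counts with vehicle and 15, 25 and 26 with VT01454, groups that did not overlap, and did not pass (1.38 ± 0.39, edgeR adjusted p = 0.118). MYH11, the smooth muscle myosin gene, was at 0 in all 6 libraries, which allows up to 3 counts, or 0.105 to 0.157 CPM.

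**Figure D5:**
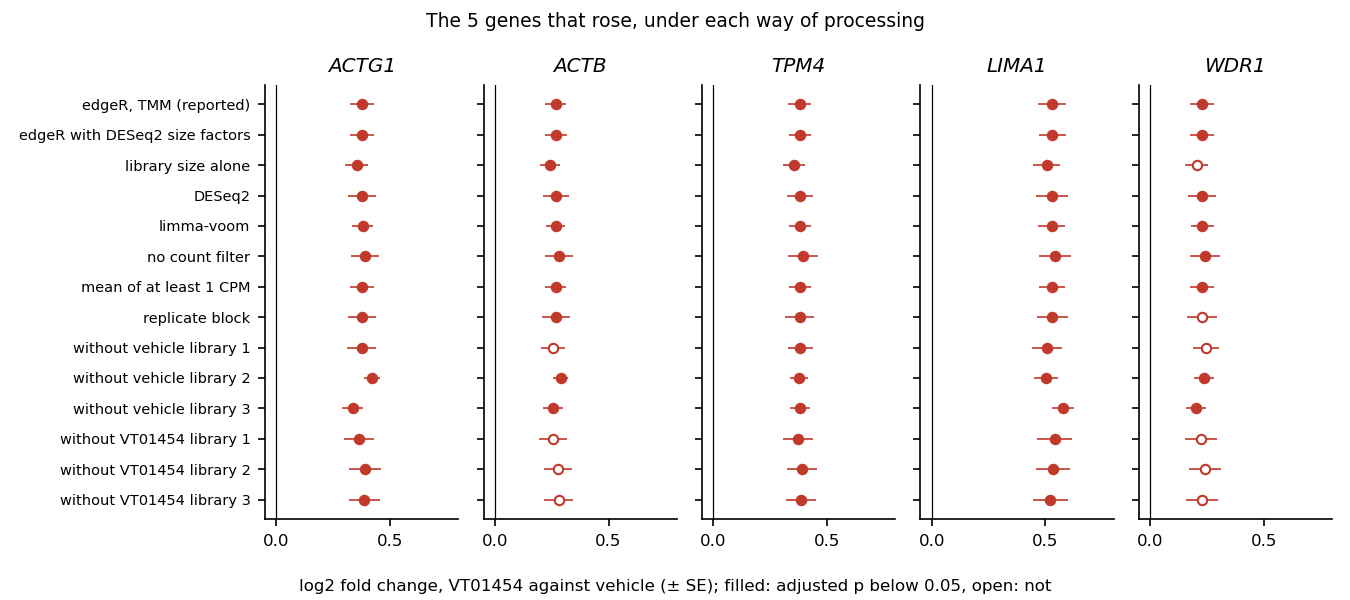
Log2 fold change ± SE (x axis) of the 5 genes that rose under the reported fit and each of 13 alternatives (y axis); filled marks passed an adjusted p of 0.05 and open marks did not. ACTG1, TPM4 and LIMA1 are filled throughout, while ACTB has 4 open marks and WDR1 has 6.

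Spread differed between the groups and moved with library. In 40 of the 44 genes the coefficient of variation was larger among vehicle than among VT01454 libraries, with medians of 6.39% and 1.88%. The same held for 72.9% of the other tested genes. Vehicle library 2 was the highest of the 6 libraries for 19 of the 44 genes and the lowest for 13. Against the other vehicle libraries it was higher in 20 of 22 genes with under 5000 bases of exon (90.9%, median log2 difference 0.15) and lower in 8 of 11 genes with 8000 bases or more (72.7%, −0.10). Over other tested genes these shares were 64.5% and 77.3%. Across the 44 genes log2 exon length and this difference had a Pearson r of −0.54 and a Spearman rank correlation of −0.67, and across 15430 other tested genes −0.31 and −0.40. These are correlations across genes that share the same libraries. TMSB10, PFN1 and MYL6 on one side and FLNA, FLNC, MYH9 and MYH10 on the other were the visible cases. The part of this length pattern in the single results was not tested. Without vehicle library 2 all 5 rises passed and CNN2 was added, while the values of FLNA, MYH9, MYH10, TMSB10 and PFN1 moved as given above.

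Copies elsewhere in the genome had few counts. Since the handling of multi-mapped reads is not given, reads lost or shared between a gene and its copies, or between ACTG1 and ACTB, are not known. Pseudogenes named after a gene were listed for 23 of the 44, and together they stood at up to 0.0438% of ACTB, 0.0407% of ACTG1, 0.379% of TPM4 and 2.16% of TPM3. The strongest gene overlapping any of the 5 that rose reached 0.0986% of its level, for TPM4. In 5 of the 44, namely ACTA2, TAGLN, MYL6, FILIP1L and GSN, an overlapping gene on the opposite strand exceeded the gene's own level.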

How the data were processed

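RNA from 6 HEK293A samples was sequenced after RNeasy Plus purification and NEBNext Ultra II library preparation, per the labels' protocols. The authors deposited a table of unnormalized gene counts for each sample. The tools in the submitters' processing notes are HTSeq 0.9.1 and HISAT2 2.2.1, on build hg38. Annotation release, strand setting and handling of multi-mapped reads were not given in the sources used here. Symbols were matched for 60357 of 60676 IDs. Coordinates (1-based) and exon length, with all exons of a gene merged, came from GENCODE release 29 on the same build.

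Counts were filtered with filterByExpr and TMM-scaled, and VT01454 was compared with vehicle in edgeR 4.0.16 (R 4.3.3, robust quasi-likelihood F-test, two-sided, Benjamini-Hochberg over 15577 genes, threshold 0.05). The SE is the log2 fold change over the square root of F. CPM uses TMM-scaled library sizes. One count was worth 0.0351 to 0.0522 such CPM; limits from a count of 0 (3 counts) cover counting error only. The script was tested on simulated data.

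Genes were named by rule: every gene that passed, the 2 most abundant per role, all 3 actins, called genes of the pathway lists reported, and SRF, MRTFA and MRTFB. The members, lists and pairs were chosen with earlier results of these data known. The GGAATG search, the 50 CPM limit and the named values outside the rule were added after the values were seen. Alternatives were DESeq2 1.42.0, limma-voom (limma 3.58.1), 2 other scalings, 2 other filters, the replicate number as a block, and leaving out each library. One list of pathway genes, with any call in it, is not reported here.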

Additional observations from a re-analysis of the deposited data

How the results depend on the processing

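Of the counts of changed genes, those over the 44 genes stayed within 1.5 times of 5 rises and 0 falls under DESeq2, limma-voom, other scalings and other filters (4 to 6 rises). Counts over the other pathway genes include the list not reported, so they are not comparable with the rises named above. Those genes, 111 tested in the reported fit, had 5 rises with DESeq2 and 5 with no count filter. All tested genes had 296 rises with DESeq2, and 508 rises and 205 falls with no count filter. Leaving out single libraries gave 3 to 9 rises and 0 to 1 falls among the 44. Among the other pathway genes it gave 1 to 15 rises and 0 to 1 falls. Over all tested genes it gave 73 to 1170 rises and 20 to 636 falls. Each highest count came without vehicle library 3, and the cause was not tested. Of the 5 genes that rose, SRF and PDLIM7, none changed direction under the 13 alternatives; the other called genes were not compared by direction. With the replicate number as a block, all tested genes had 232 rises and 107 falls and the 44 genes 4 and 0, WDR1 being lost (adjusted p = 0.0802) and the pathway gene COBL called (0.0410). Same-numbered libraries correlated at −0.13, −0.13 and 0.044 in their deviations from the group means, and vehicle library 2 with VT01454 library 1 at 0.19. With 3 libraries per group these values cannot tell whether same-numbered libraries were handled together. Depth limits the 6 genes under 10 CPM most.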

Other observations

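Outside the 44 genes, 3 tested genes with a CArG box in the RefSeq window rose, named here after their values were seen: the immediate early gene EGR1 (log2 fold change 3.39, edgeR adjusted p = 1.09e-04), SRF, and FHL2, a LIM-only gene related to FHL1 (0.33, adjusted p = 0.0318). None of the 111 such genes fell in edgeR. Among 11073 tested genes without a box 0.659% fell, a share so low that 0 among 111 cannot be told apart from it.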
